A study of Mus musculus with 4 samples.

Results

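The genes described here encode the histone variant H2A.Z and the proteins that place it in chromatin or take it out. There are 10 of them, chosen by name from their known roles, among 21938 protein-coding genes of GENCODE vM21 on chromosomes 1 to 19, X and Y, and all 10 were found. They are H2afz and H2afv, which encode the 2 forms of H2A.Z, and Srcap, Vps72, Ep400, Kat5, Ruvbl1, Ruvbl2, Ino80 and Anp32e. Every ATACseq and H2A.Z peak in each gene or within 5 kb of its transcription start site (TSS) is accounted for.

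The data came from whole livers of male C57Bl/6 mice aged 8 to 12 weeks. The WT mice were Uhrf1 fl/fl, and the Uhrf1hepKO mice were Uhrf1 fl/fl;Alb:Cre, in which the albumin promoter drives the Cre recombinase. Both groups thus carried the floxed allele, and the deletion is aimed at hepatocytes, whereas whole liver also holds other cell types. ATACseq sequences the DNA that the Tn5 transposase can cut, and in the H2A.Z ChIPseq an antibody against the variant recovers its DNA from chromatin digested with micrococcal nuclease. Each assay gave 1 library per genotype, 4 libraries in all, and the sources do not say whether both assays of a genotype used the same liver. There is no replicate error and no p-value can be given, and a difference between the genotypes cannot be told apart from a difference between 2 mice or 2 libraries.

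H2A.Z replaces the canonical histone H2A in some nucleosomes and is known for its place in the nucleosomes beside the TSSs of many genes. The SRCAP complex and the related TIP60/p400 complex use the energy of ATP to exchange H2A for H2A.Z, while INO80 and the chaperone ANP32E have been linked to its removal. UHRF1 is needed to keep DNA methylated when cells divide, and H2A.Z and DNA methylation tend to occupy different places in the genome.

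The lists held 10582 ATACseq peaks in WT and 10764 in Uhrf1hepKO, and 51450 and 47135 H2A.Z peaks. For H2A.Z, the folds implied a background of 3.10 (WT) and 3.30 (Uhrf1hepKO) reads per base, and 94.1% and 91.7% of the H2A.Z peaks lay on its steps. With the shortest peak of each H2A.Z list taken as the fragment length, the Uhrf1hepKO library was 1.0 times as deep as the WT library. Of the ATACseq peaks, 4.19% and 4.69% lay on the steps of the background inferred in the same way, so the relative depth of these libraries is not known. Of 10 hepatocyte markers, Apoa2 and Ttr had any ATACseq or H2A.Z peak near the TSS (5 kb) in WT and Apoa2 and Alb in Uhrf1hepKO, whereas Apoa1, Ass1, Cps1, Cyp2e1, Hnf4a, Serpina1a and Tat had none. None of 5 markers each of Kupffer and endothelial cells and of 4 each of stellate cells and lymphocytes had a peak, and 1 of 4 cholangiocyte markers, Sox9, had one. The lists therefore do not identify the tissue by its defining markers. Uhrf1 itself had 1 peak in each of the 4 libraries, which does not check its deletion. In whole liver, a peak present in fewer cells and a peak that is weaker in every cell cannot be told apart.

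Nearly all of these genes lay in accessible chromatin beside H2A.Z. An ATACseq peak was found within 5 kb of the TSS of 9 of 10 genes in WT, where 30.2% of protein-coding genes had one, and of 9 in Uhrf1hepKO, where 27.9% had one. H2A.Z peaks were found at 10 genes in WT (52.8% of protein-coding genes) and at 9 in Uhrf1hepKO (51.0%). All 9 were marked in WT too (48.8% in both genotypes), and none had H2A.Z in Uhrf1hepKO only (2.19%). At Vps72 the ATACseq peak lay at the TSS of a neighbour and at Ruvbl2 around a second start, as described below. Within 500 bp of the TSS, 7 genes had an ATACseq peak in each genotype (25.3% of protein-coding genes in WT and 22.9% in Uhrf1hepKO). The 10 genes had 23 to 122 CpGs within 500 bp of the TSS, with a median of 62.5 against 41 for all protein-coding genes. Among the 13251 protein-coding genes within that range of CpGs, 43.9% and 40.3% had an ATACseq peak in WT and Uhrf1hepKO, and 71.6% and 69.5% an H2A.Z peak. Both kinds of peak were present in both genotypes at 8 genes (20.9% of protein-coding genes). The exceptions were Kat5, which had no ATACseq peak in either genotype, as had 65.0% of protein-coding genes, and Ep400, which had an H2A.Z peak in WT only, as had 3.95%.

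**Figure D1:**
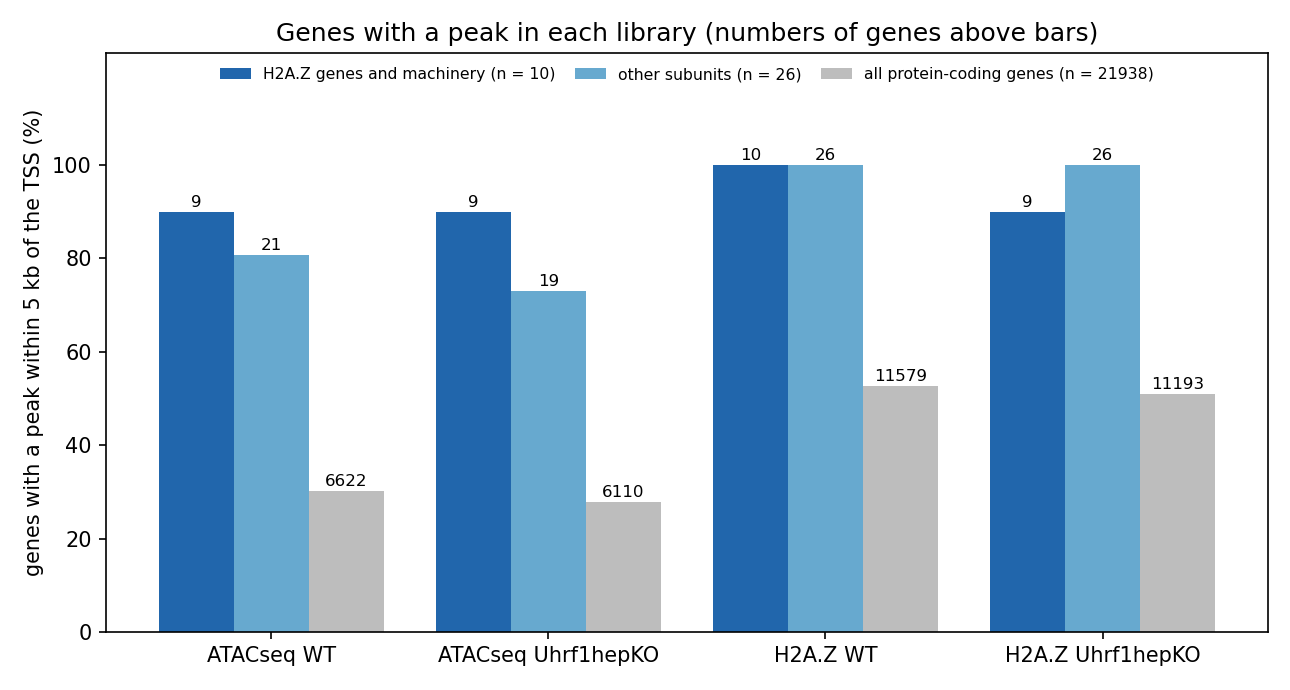
Share of genes with at least 1 peak within 5 kb of the TSS (y axis, %) in each of the 4 libraries (x axis) for the 10 H2A.Z genes and exchange factors, 26 other subunits of the same complexes and all 21938 protein-coding genes, with the number of genes above each bar. Between 9 and 10 of the 10 genes had a peak in every library, and the bars of all protein-coding genes lie between 27.9% and 52.8%.

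Over the 10 genes there were 9 ATACseq peaks in WT and 10 in Uhrf1hepKO, and 30 and 23 H2A.Z peaks. All of them lay within 5 kb of the 5′ end of their gene except 1 ATACseq peak of Uhrf1hepKO in Ruvbl2. The ATACseq peaks made 10 sites, of which 9 were shared by the genotypes (43.6% of all ATACseq sites). The ATACseq peaks covered the annotated 5′ end, taken as the TSS, at 6 genes in each genotype (18.1% of protein-coding genes in WT and 16.2% in Uhrf1hepKO), which were H2afz, H2afv, Srcap, Ep400, Ruvbl1 and Anp32e. At Srcap and Ep400 the principal start of the annotation lies further downstream and was not covered. The H2A.Z peaks covered the 5′ end at 1 gene, Kat5, in each genotype (4.74% and 4.41%). Distances below are from the 5′ end of the gene to the summit of an H2A.Z peak or the centre of an ATACseq peak, negative upstream. An H2A.Z level is the pileup, the number of reads over the summit, with the exact Poisson 95% interval, which covers counting error only. The fold is the authors' enrichment of pileup over background, and since the lists were not scaled to each other, folds are given for each list and not compared between them.

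**Figure D2:**
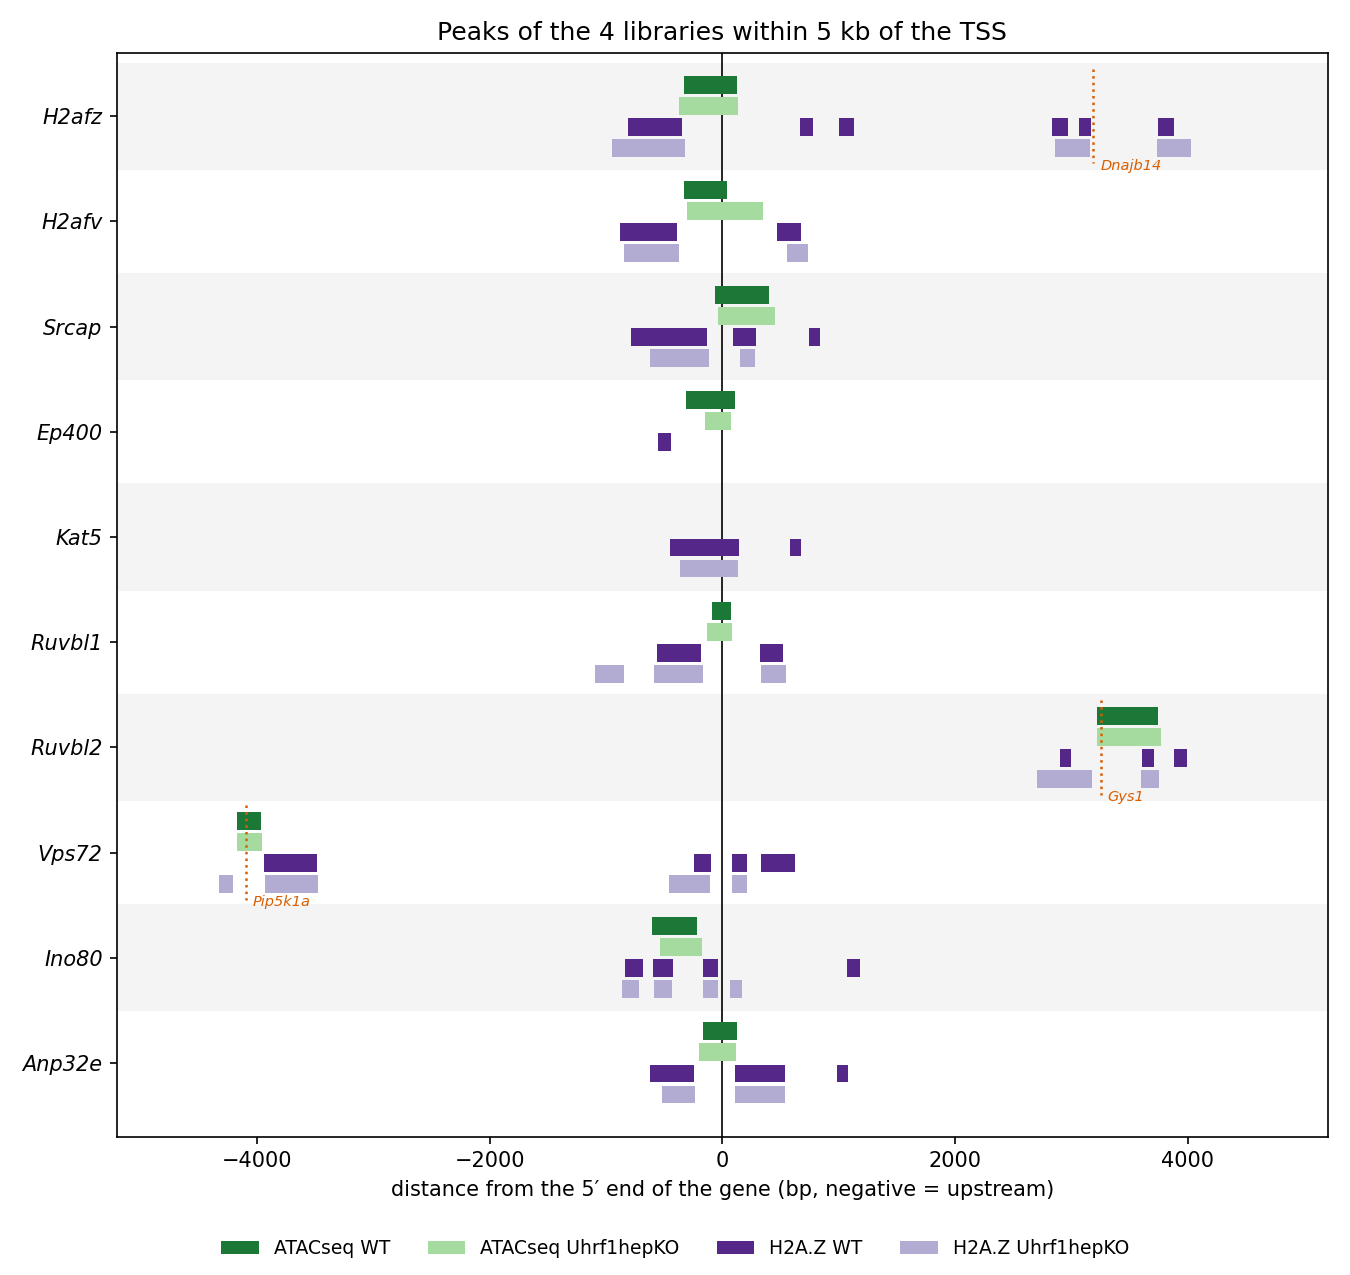
Every peak within 5 kb of the TSS of the 10 genes, as bars from edge to edge against the distance from the 5′ end of the gene (bp, negative upstream), with 1 row per library in each gene. Dotted lines mark the TSS of a neighbouring protein-coding gene. ATACseq bars cover the vertical line at 6 genes in each genotype. Those of Ruvbl2 cover its second principal start and the TSS of Gys1, and those of Vps72 lie at the TSS of Pip5k1a.

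Of the 2 genes for the variant itself, H2afz encodes the main form, H2A.Z.1. It lies at chr3:137864487-137866922 on the plus strand (GRCm38). The ATACseq peak over its TSS was 458 bp wide with a fold of 4.87 in WT and 512 bp wide with a fold of 5.20 in Uhrf1hepKO. The TSS of the antisense RNA Gm43403 lies at -113, so the accessible stretch covers the starts of both transcripts. Upstream of it was an H2A.Z peak with a summit at -434 and 22 reads (13.8 to 33.3) in WT and at -375 and 28 reads (18.6 to 40.5) in Uhrf1hepKO. The intervals of these pileups overlapped, and a difference was not tested. The lists differed within the gene. WT had a peak at +726 with 22 reads (13.8 to 33.3), in an intron of the coding transcripts that is an exon of a retained-intron transcript, and a peak at +1058 with 23 reads (14.6 to 34.5) in a coding exon. Uhrf1hepKO had neither. By pileup alone, a site too low to be listed there could have up to 11 reads (5.49 to 19.7). The intervals of both WT peaks overlapped that interval. Under the peak at +1058, 26 of 56 windows of 75 bases (46.4%) occur again elsewhere in the genome without a mismatch, so reads from it cannot be placed with certainty, and no other peak of the 10 genes held such a window. H2afz also had 3 further H2A.Z peaks in WT, at +2880, +3119 and +3806, and 2 in Uhrf1hepKO, at +3105 and +3875. These lie on either side of the TSS of Dnajb14 at +3188, a heat shock protein gene on the same strand, and are nearest to it. The nearest ATACseq peak to Dnajb14 in this window was that of H2afz.

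H2afv encodes the second form, H2A.Z.2, and lies at chr11:6427229-6444443 on the minus strand. Its ATACseq folds were 7.23 in WT, in a peak of 370 bp, and 8.09 in Uhrf1hepKO, in a peak of 660 bp. Within each list, 96.0% and 98.7% of the protein-coding genes with an ATACseq peak had a lower highest fold, which placed H2afv and Ruvbl1 at the top of the 10 genes in both genotypes. H2A.Z lay on both sides of the accessible stretch. The upstream summit was at -461 with 45 reads (32.8 to 60.2) in WT and at -483 with 36 reads (25.2 to 49.8) in Uhrf1hepKO, and the downstream one, in an intron, at +541 with 16 reads (9.15 to 26) and at +626 with 17 reads (9.90 to 27.2). In both genotypes the upstream summit had more reads than the downstream one, and the intervals of the pair did not overlap in WT and overlapped in Uhrf1hepKO. Apart from a processed pseudogene, Gm11970, at -1775, no other gene starts within 5 kb.

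The 250 bases before the start of both genes are shown because the ATACseq peak covers this stretch or most of it in both genotypes. They are from the RefSeq FASTA of GRCm38, read 5′ to 3′ toward the gene. Capitals mark the motifs searched that were found, on either strand: CCAAT or ATTGG (the letters that NF-Y binds), GGGCGG or CCGCCC (the SP and KLF factors) and CACGTG (an E-box).
H2afz, chr3:137864237-137864486, plus strand: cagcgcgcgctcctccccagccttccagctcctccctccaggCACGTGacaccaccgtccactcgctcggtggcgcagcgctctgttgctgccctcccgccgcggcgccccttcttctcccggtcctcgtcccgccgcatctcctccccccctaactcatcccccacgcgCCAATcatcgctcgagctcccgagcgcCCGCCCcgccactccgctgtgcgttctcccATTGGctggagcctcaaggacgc
H2afv, chr11:6444444-6444693, minus strand: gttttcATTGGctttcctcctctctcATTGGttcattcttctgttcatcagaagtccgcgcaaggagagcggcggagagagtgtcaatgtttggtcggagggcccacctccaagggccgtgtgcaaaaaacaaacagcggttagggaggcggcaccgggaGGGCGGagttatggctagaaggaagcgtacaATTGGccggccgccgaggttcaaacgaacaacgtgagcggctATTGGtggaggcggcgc
In the window from 250 bases before to 50 after the start, H2afz held CCAAT at -80, -23 and 22, the last past the printed stretch, and CACGTG at -208, and H2afv held CCAAT at -244, -224, -59 and -17. Of the 10 genes, 7 had CCAAT in this window and 6 had GGGCGG, against 39.0% and 43.0% of the windows of all protein-coding genes. CACGTG was found at H2afz and Kat5 (7.75% of all windows) and TATAAA at Ruvbl1 (12.6%). The letters GCATGCG (NRF1), AAGATGGC (YY1) and CCGGAAGT (ETS factors) were found at none of the 10, and in 4.64%, 2.92% and 4.70% of all windows. No searched motif contains another. A match describes the letters of the window and is no evidence that a factor binds there.

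Srcap encodes the ATPase of the SRCAP complex and lies at chr7:127511983-127561219 on the plus strand. The ATACseq peak over its first TSS had a fold of 4.12 in WT and 5.08 in Uhrf1hepKO, and widths of 469 and 492 bp. H2A.Z was highest upstream, at -369 with 32 reads (21.9 to 45.2) in WT and at -398 with 41 reads (29.4 to 55.6) in Uhrf1hepKO. A second summit lay inside the ATACseq peak, at +218 and +208, with 23 reads (14.6 to 34.5) in each genotype. Another peak, at +805 with 15 reads (8.40 to 24.7) in an intron, was listed in WT only. The antisense RNA 1700008J07Rik overlaps the whole stretch, and its TSS is at +886, next to this peak. Srcap itself has further starts at +1009 and +1035, of which the latter is the principal one. The ATACseq peak ended at +402 in WT and +456 in Uhrf1hepKO and did not reach them.

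Vps72 encodes YL1, the subunit of both exchange complexes that binds the H2A.Z-H2B dimer. It lies at chr3:95111022-95123051 on the plus strand. Its own TSS had H2A.Z on both sides and no ATACseq peak. The upstream summit was at -172 with 26 reads (17 to 38.1) in WT and at -183 with 33 reads (22.7 to 46.3) in Uhrf1hepKO, and the one in a coding exon at +154 with 23 reads (14.6 to 34.5) and at +160 with 30 reads (20.2 to 42.8). Both were higher in Uhrf1hepKO, with intervals that overlapped between the genotypes. WT had a further peak at +384 with 18 reads (10.7 to 28.4) in an intron. The ATACseq peak counted for Vps72, at -4070 in WT (fold 6.63) and -4063 in Uhrf1hepKO (fold 5.19), lies over the TSS of Pip5k1a, a phosphatidylinositol phosphate kinase gene that runs the other way from -4092. The H2A.Z peak beside it had the most reads of any WT peak at the 10 genes, 47 (34.5 to 62.5) at -3853, with 43 (31.1 to 57.9) at -3850 in Uhrf1hepKO. A peak on the other side of it, at -4270 with 27 reads (17.8 to 39.3), was listed in Uhrf1hepKO only.

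Ep400 encodes p400, the ATPase of the TIP60/p400 complex, and lies at chr5:110664373-110770717 on the minus strand. The ATACseq peak over the TSS was 428 bp wide with a fold of 4.32 in WT and 230 bp wide with a fold of 4.61 in Uhrf1hepKO. This peak ended at +113 in WT and +78 in Uhrf1hepKO, short of the principal start of the annotation at +190. Ep400 had 1 H2A.Z peak in WT, at -490 with 25 reads (16.2 to 36.9), in an exon of the antisense RNA Gm15559, whose TSS is at -232. In Uhrf1hepKO no H2A.Z peak was listed in the gene or within 5 kb, and the nearest began 10024 bp upstream, at the TSS of Pus1. The lowest pileup listed at the background of the Uhrf1hepKO library was 12 reads. A summit of 11 reads would not be listed, and its interval, 5.49 to 19.7, overlaps that of the 25 reads in WT. The reads at this place in Uhrf1hepKO are not known, and a loss was not tested.

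Kat5 encodes TIP60, the acetyltransferase of the same complex, and lies at chr19:5603014-5610237 on the minus strand. It had H2A.Z in both genotypes and an ATACseq peak in neither. The nearest ATACseq peaks were 80662 bp away in WT and 38681 bp away in Uhrf1hepKO. The H2A.Z peak covered the TSS, from -453 to +140 in WT with 30 reads (20.2 to 42.8) at its summit, and from -365 to +131 in Uhrf1hepKO with 36 reads (25.2 to 49.8). The summit was at +69 in WT, in an exon with 5′ untranslated sequence, and at -190 in Uhrf1hepKO, a shift of 259 bp that was the largest of the 20 sites with a peak in both genotypes. WT had a second peak at +604 with 15 reads (8.40 to 24.7).

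The same stretch before Kat5 is shown because this gene had H2A.Z over the TSS and no ATACseq peak there. Capitals are as before. Kat5 held CACGTG at -43 and CCAAT at -20.
Kat5, chr19:5610238-5610487, minus strand: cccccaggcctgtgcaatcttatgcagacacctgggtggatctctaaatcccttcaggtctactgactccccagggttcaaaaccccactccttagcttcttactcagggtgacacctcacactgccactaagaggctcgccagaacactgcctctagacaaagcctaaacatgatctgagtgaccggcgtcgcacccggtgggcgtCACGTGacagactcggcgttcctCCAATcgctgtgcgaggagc

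Ruvbl1 and Ruvbl2 encode the paired AAA+ ATPases of the SRCAP, TIP60 and INO80 complexes. Ruvbl1 lies at chr6:88465409-88497572 on the plus strand and had the narrowest ATACseq peak among those over the TSS of one of the 10 genes, 169 bp with a fold of 7.24 in WT and 215 bp with a fold of 6.69 in Uhrf1hepKO. Within each list, 96.1% and 93.6% of the protein-coding genes with an ATACseq peak had a lower highest fold. The upstream H2A.Z summit was at -256 with 43 reads (31.1 to 57.9) in WT and at -249 with 46 reads (33.7 to 61.4) in Uhrf1hepKO. The downstream summit was at +455 with 13 reads (6.92 to 22.2) and at +404 with 19 reads (11.4 to 29.7), so that in each genotype the upstream interval lay above the downstream one. Another peak, at -1030 with 22 reads (13.8 to 33.3), was listed in Uhrf1hepKO only. No other gene overlaps Ruvbl1 or starts within 5 kb of it.

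Ruvbl2 lies at chr7:45421760-45438096 on the minus strand, and no peak of any library lay near its annotated 5′ end. All of its peaks within 5 kb lay around a second principal start in the annotation, at +3473, which runs head to head with Gys1, the muscle glycogen synthase gene, whose TSS is at +3252. The ATACseq peak there was centred at +3483 in WT (527 bp, fold 4.06) and at +3493 in Uhrf1hepKO (549 bp, fold 4.38), within 20 bases of this start. H2A.Z lay on the Gys1 side at +2972 with 15 reads (8.40 to 24.7) in WT and at +3096 with 21 reads (13.0 to 32.1) in Uhrf1hepKO. Inside the ATACseq peak it lay at +3669 with 19 reads (11.4 to 29.7) and at +3684 with 26 reads (17 to 38.1), and WT had another peak at +3941 with 20 reads (12.2 to 30.9). The only peak of the 10 genes beyond 5 kb was in a Ruvbl2 intron at +14047, an ATACseq peak of Uhrf1hepKO with a fold of 3.53 and a q-value of 0.0378. Its centre was 229 bp from another annotated start of Ruvbl2.

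The sequence before this second start is shown because the peaks lie there and not at the 5′ end of the gene. It runs from the TSS of Gys1 toward Ruvbl2, and bases in untranslated exons were left out.
Ruvbl2, chr7:45434710-45434843, minus strand: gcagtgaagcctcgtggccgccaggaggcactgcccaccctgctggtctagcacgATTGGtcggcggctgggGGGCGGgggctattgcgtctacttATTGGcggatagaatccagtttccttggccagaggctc
Around this start, CCAAT was found at -165, -124, -39 and -4, counted from the second start, of which the printed stretch holds the first 2, whereas the 5′ end of the gene had it at -152 only.

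Ino80 encodes the ATPase of the INO80 remodelling complex and lies at chr2:119373042-119477687 on the minus strand. Its ATACseq peak did not reach the TSS, with edges at -607 and -218 in WT and a fold of 4.76, and edges at -533 and -177 in Uhrf1hepKO and a fold of 4.82. There were 3 H2A.Z peaks at the same places in both genotypes. The summit within the ATACseq peak was at -510 with 42 reads (30.3 to 56.8) in WT and at -497 with 29 reads (19.4 to 41.6) in Uhrf1hepKO. This was the largest fall among the 20 shared sites, and the intervals overlapped. The summit at -775 had 31 reads (21.1 to 44.0) in WT and the one at -785 had 34 (23.5 to 47.5) in Uhrf1hepKO. Closest to the TSS, the summit at -88 had 33 reads (22.7 to 46.3) in WT and the one at -91 had 30 (20.2 to 42.8) in Uhrf1hepKO. Single peaks were listed at +1122 in WT with 19 reads (11.4 to 29.7) and at +121 in Uhrf1hepKO with 21 reads (13.0 to 32.1).

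Anp32e encodes the chaperone that binds H2A.Z and takes it out of nucleosomes. It lies at chr3:95929246-95947390 on the plus strand, and its ATACseq peak over the TSS was 298 bp wide with a fold of 5.44 in WT and 314 bp wide with a fold of 5.48 in Uhrf1hepKO. The upstream H2A.Z summit was at -306 with 19 reads (11.4 to 29.7) in WT and at -445 with 30 reads (20.2 to 42.8) in Uhrf1hepKO, the largest rise among the shared sites. The intronic summit was at +452 with 23 reads (14.6 to 34.5) and at +456 with 31 reads (21.1 to 44.0). Both intervals of each pair overlapped. A peak at +992 with 12 reads (6.20 to 21.0), the lowest at the 10 genes, was listed in WT only.

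The stretch before Anp32e is shown because it held CCAAT at 4 places, -220, -115, -54 and -23, as many as any of the 10 genes.
Anp32e, chr3:95928996-95929245, plus strand: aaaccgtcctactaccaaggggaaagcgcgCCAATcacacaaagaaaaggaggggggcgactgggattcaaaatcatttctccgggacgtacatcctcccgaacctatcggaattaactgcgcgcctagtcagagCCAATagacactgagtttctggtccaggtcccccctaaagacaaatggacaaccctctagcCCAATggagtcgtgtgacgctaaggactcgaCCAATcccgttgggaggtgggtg

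Read as sites, with overlapping peaks of the 2 genotypes joined, the 10 genes had 32 H2A.Z sites. A peak was listed in both genotypes at 20 sites (55.9% of all H2A.Z sites), in WT only at 9 (25.3%) and in Uhrf1hepKO only at 3 (18.8%). At the 20 shared sites the summits lay a median of 18.5 bp apart. The median pileup there was 23 in WT and 30 in Uhrf1hepKO, against 24 and 25 over all shared sites of the genome. The Uhrf1hepKO pileup was higher at 14 of the 20 sites (59.5% of all shared sites), lower at 5 (32.4%) and equal at 1. At none of the 20 were the Poisson intervals of the 2 genotypes apart (0.0176% of all shared sites). Overlap of such intervals is not a test, and no difference between WT and Uhrf1hepKO was tested at any site.

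**Figure D3:**
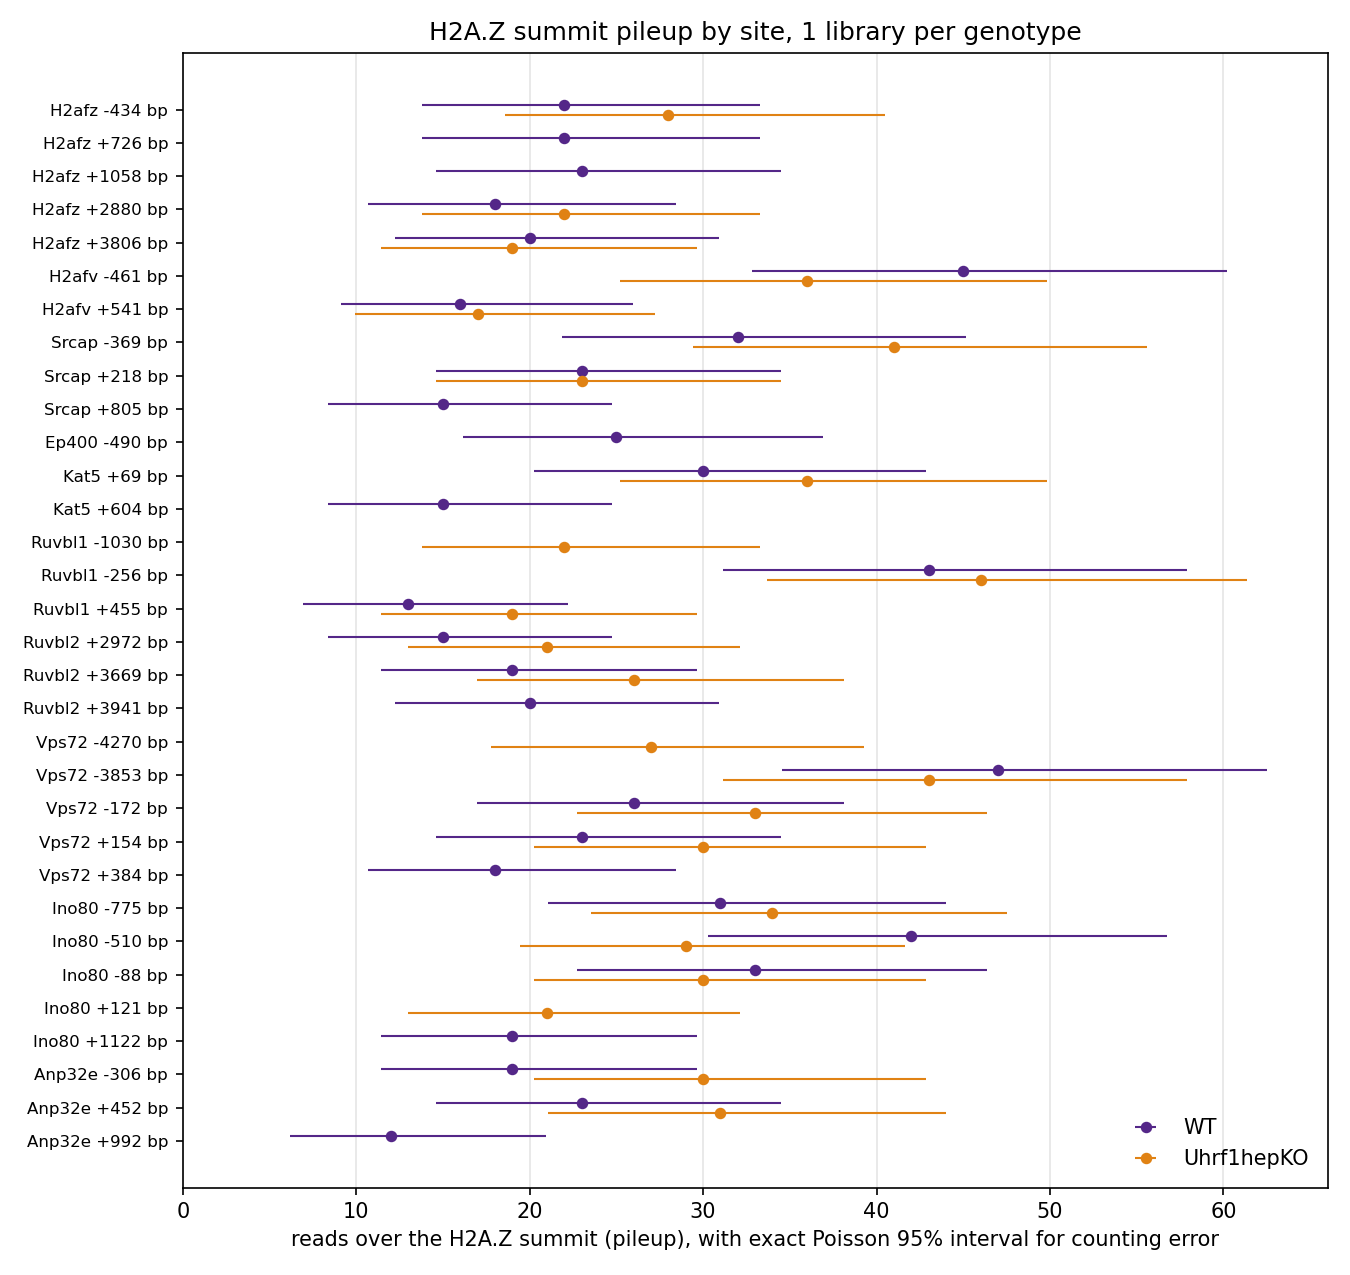
Reads over the H2A.Z summit (x axis, pileup) at each of the 32 sites of the 10 genes (y axis, gene and distance of the WT summit from the TSS, or of the Uhrf1hepKO summit where WT had none). Points are single libraries and bars are exact Poisson 95% intervals for counting error. The intervals of the 2 genotypes overlap at all 20 sites that have both points.

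The 9 sites listed in WT only had 12 to 25 reads, with a median of 19, against 17 for all WT-only sites of the genome. The 3 listed in Uhrf1hepKO only had 21 to 27, against a median of 18 for all such sites. The highest WT-only pileups, 25 at Ep400 and 23 at H2afz, were at or above the median of the shared sites in WT. The 23 reads at H2afz are those of the peak at +1058, where reads cannot be placed with certainty. By pileup alone, a site with up to 11 reads could be missing from the Uhrf1hepKO list. For the WT list the number was 10. The intervals of all 9 and all 3 overlapped the interval of such a site. A site narrower than the shortest peak of a list could be missing with more reads, so these numbers are not upper bounds. Of the WT peaks, 21 of 30 overlapped a Uhrf1hepKO peak (70.0% of all WT H2A.Z peaks), and 9 of 9 WT ATACseq peaks did so (61.3%). Although WT had more H2A.Z peaks, these were narrower, with a median width of 146.5 bp against 283 bp, where all H2A.Z peaks had medians of 156 and 167 bp. They covered 6951 bp in WT and 6868 bp in Uhrf1hepKO.

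At some of the genes the accessible stretch had H2A.Z summits on both sides. With summits sought within 1 kb of the edges of the ATACseq peak, 7 genes had H2A.Z on both sides in WT (44.1% of protein-coding genes with an ATACseq peak), which were H2afz, H2afv, Srcap, Ruvbl1, Ruvbl2, Ino80 and Anp32e. In Uhrf1hepKO, 5 had it (40.0%), which were H2afv, Ruvbl1, Vps72, Ino80 and Anp32e. At Vps72 this was the stretch at the TSS of Pip5k1a. A summit also lay inside the ATACseq peak at Srcap, Ruvbl2 and Ino80 in both genotypes and at H2afz in Uhrf1hepKO. At H2afz the upstream summit of Uhrf1hepKO, at -375, fell just inside the wider ATACseq peak, whose edge was at -376, and was therefore not counted. The summits on the 2 sides were 687 to 1174 bp apart in WT, with a median of 969 bp, and 420 to 1109 bp apart in Uhrf1hepKO, with a median of 694 bp. Over all flanked ATACseq peaks that covered a TSS the medians were 717 and 695.5 bp. The distances at the genes named above were not limited to such peaks. The ATACseq peak of Ino80 covered no TSS in either genotype, and its distance of 694 bp was itself the Uhrf1hepKO median. The 420 bp at Vps72 was measured around the TSS of Pip5k1a. The medians thus come from unlike sets of peaks, and their closeness in Uhrf1hepKO was not tested.

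By the highest summit within 5 kb, the WT order was Vps72 with 47 reads, H2afv with 45, Ruvbl1 with 43, Ino80 with 42, Srcap with 32, Kat5 with 30, Ep400 with 25, H2afz and Anp32e with 23 each, and Ruvbl2 with 20. The 47 reads of Vps72 are those beside the TSS of Pip5k1a, and its highest summit at its own TSS had 26. The 23 reads of H2afz are those of the peak at +1058, where reads cannot be placed with certainty, and its next highest summits had 22. In Uhrf1hepKO the order was Ruvbl1 with 46, Vps72 with 43 (33 at its own TSS), Srcap with 41, H2afv and Kat5 with 36 each, Ino80 with 34, Anp32e with 31, H2afz with 28 and Ruvbl2 with 26, with no peak at Ep400. In both lists each gene's interval overlapped that of the next in this order. In WT the interval of Vps72, 34.5 to 62.5, lay above that of Ruvbl2, 12.2 to 30.9. The sequence under the peaks held more CpGs than that under all peaks of each list. Those are not limited to peaks near a TSS, and peaks near a TSS alone were not compared. Under the ATACseq peaks of the 10 genes there were 8.10 CpGs per 100 bp in WT and 8.02 in Uhrf1hepKO, against 5.69 and 5.15 under all ATACseq peaks. Under their H2A.Z peaks there were 4.19 and 3.80, against 2.34 and 2.30.

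The other subunits of the 3 complexes were 26 genes, each listed under a single complex. H2A.Z was found within 5 kb of all 26 in both genotypes (48.8% of protein-coding genes), and ATACseq peaks at 21 in WT (30.2%) and 19 in Uhrf1hepKO (27.9%). Of the 21 with an ATACseq peak in WT, 12 had H2A.Z on both sides of it (44.1% of protein-coding genes with an ATACseq peak). Of the 19 in Uhrf1hepKO, 8 had it (40.0%). By complex, ATACseq peaks were present in both genotypes at 4 of 5 further SRCAP genes, 7 of 10 TIP60 genes and 7 of 11 INO80 genes (23.0% of protein-coding genes). The median of the highest H2A.Z folds in WT was 10.4 for the SRCAP genes, 7.19 for the TIP60 genes and 7.07 for the INO80 genes, against 7.80 for the 10 genes and 7.07 for all protein-coding genes with a peak. The SRCAP median rests on 5 genes. A subunit that complexes share entered the median of only the complex it was listed under, so these medians do not compare whole complexes. The highest WT folds were those of Brd8, the bromodomain subunit of TIP60, with 14.6, Ino80c, an INO80 subunit, with 12.7 and Actr6, an actin-related protein of SRCAP, with 11.9. The summit of this Brd8 peak lay in an untranslated exon of the neighbour Kif20a. Peaks of the wider list were counted by distance alone, so some may belong to neighbouring genes.

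Genes of the wider list with an ATACseq peak in 1 genotype were Actr6, Epc1 and Nfrkb in WT (7.19% of protein-coding genes) and Meaf6 in Uhrf1hepKO (4.85%). Their folds, 5.28 at Actr6, 3.69 at Epc1, 4.24 at Nfrkb and 4.12 at Meaf6, came with H2A.Z peaks in both genotypes. At Actr6 the strongest H2A.Z summit had 48 reads (35.4 to 63.6) in WT and 47 (34.5 to 62.5) in Uhrf1hepKO, although no ATACseq peak was listed in the latter. Ino80d, Ino80e, Yy1 and Morf4l1, named after their values were seen, had H2A.Z and no ATACseq peak in either genotype, as did Kat5. Over all protein-coding genes, 25.0% in WT and 26.0% in Uhrf1hepKO had H2A.Z without ATACseq.

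**Figure D4:**
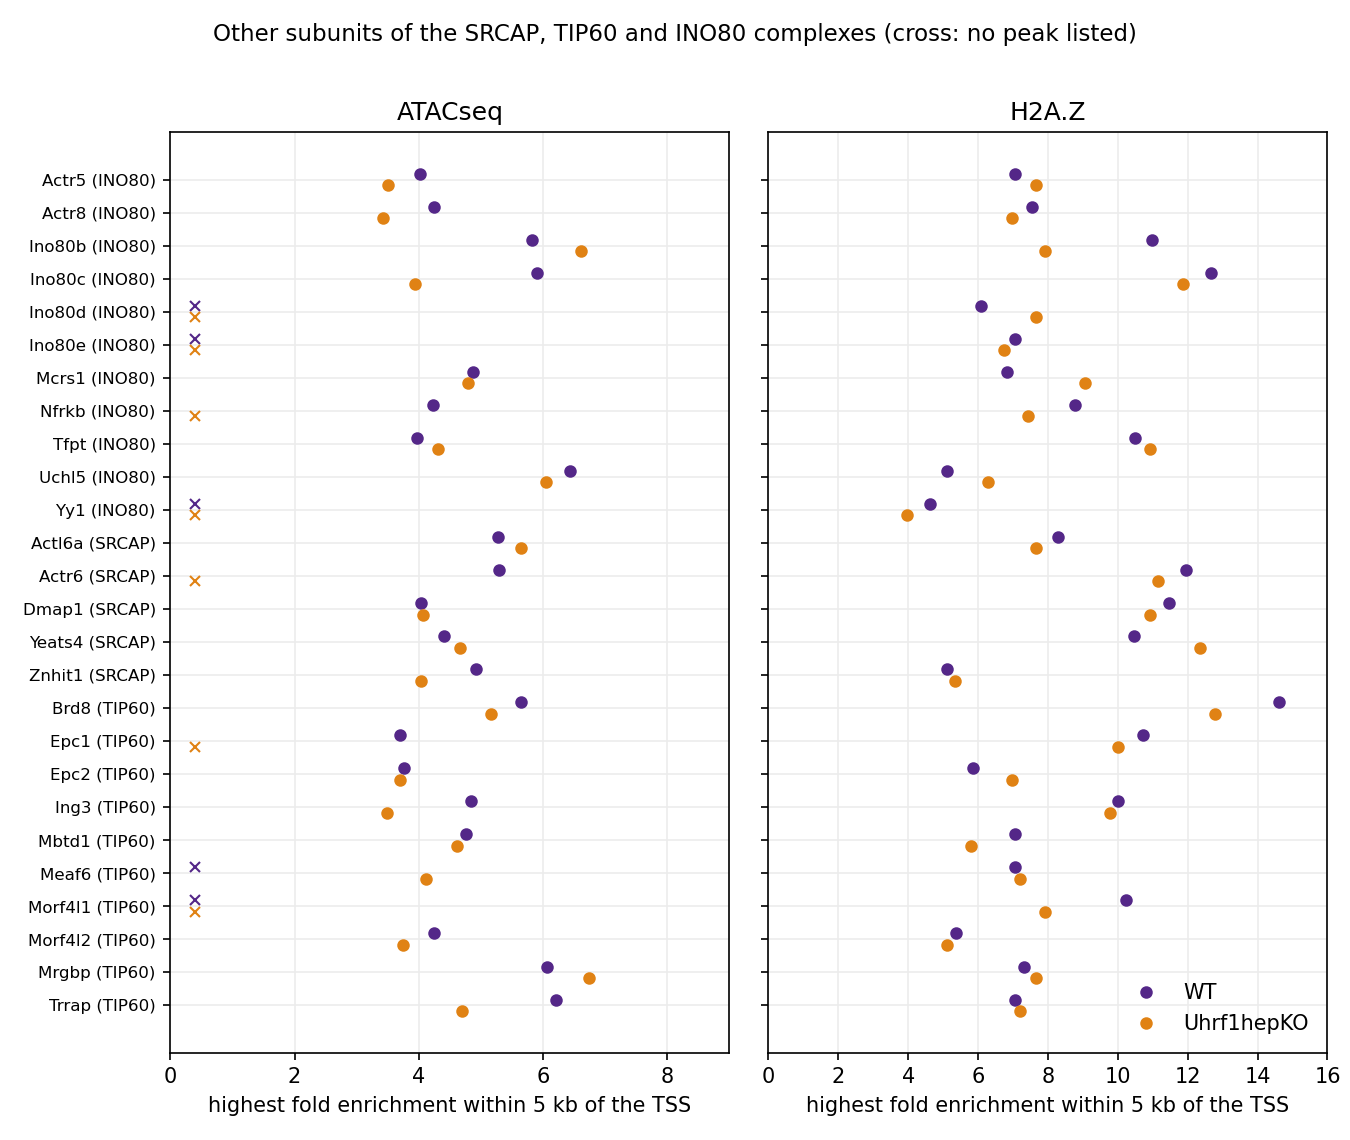
Highest ATACseq fold (left) and highest H2A.Z fold (right) of a peak within 5 kb of the TSS (x axis) for the 26 other subunits (y axis, with the complex), 1 point per genotype. A cross marks a gene with no listed peak. Every gene has both points for H2A.Z, and crosses are found for ATACseq alone, at 5 genes in WT and 7 in Uhrf1hepKO, and folds of the 2 genotypes come from lists that were not scaled to each other.

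In the number of peaks within 5 kb over the 4 libraries, measured as the sum of the differences, the genes of the wider list most like H2afz were Epc2 and Trrap at a difference of 2 and Brd8, Dmap1 and Ino80b at 3. H2afz had 6 H2A.Z peaks in WT and 3 in Uhrf1hepKO, and Epc2 and Trrap had 4 and 3 each. Actr5, Mrgbp and Znhit1 had the same numbers as H2afv, 1 ATACseq and 2 H2A.Z peaks in each genotype. These numbers do not describe where the peaks lie. In Uhrf1hepKO the H2A.Z summits lay at -184 and +787 at Actr5, at -4771 and -4445 at Mrgbp and at +548 and +1318 at Znhit1. Those of H2afv lay at -483 and +626.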

How the data were processed

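Reads were mapped by the authors with BWA-MEM (GRCm38.p4), tidied with PICARD and given to MACS2 library by library, in broad mode for ATACseq. A control library, the MACS2 version and any Tn5 shift are not given in the sources used here. The deposited peaks carry a display score, a fold (a ratio of pileup to background), −log10 p- and q-values and, for H2A.Z, another value, the summit offset, with no scaling between libraries.

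Peaks of the chromosomes named in the report were written 1-based and assigned by an overlap of 1 bp. Since MACS2 adds 1 to pileup and background, both were solved from the deposited fold and Poisson p-value of each H2A.Z peak, which gave a whole pileup within 0.001 in log10 p for 100% of peaks. Total reads are not known.

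The members and lists were chosen with earlier results of these data known. Named genes were the 10 members, their neighbours and, of the wider list, the 3 highest H2A.Z folds in WT, genes without peaks or with ATACseq peaks in 1 genotype, and the likest to H2afz and H2afv. Windows, thresholds, starts and overlaps were varied. Steps were tested on simulated data (Python 3.11.15, scipy 1.17.1). Of the promoter sequences read, 1 is not reported here.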

Additional observations from a re-analysis of the deposited data

How the results depend on the processing

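No paired analysis was possible because each group had 1 library and no test was made. Of 58 alternatives over 12 counts, 53 gave a count within 1.5 times the reported one. With peaks below the median fold of each list removed, ATACseq was found at 13 of the wider list in WT (21 with all peaks) and at 12 in Uhrf1hepKO (19 with all peaks), and H2A.Z on both sides of an ATACseq peak at 2 of the 10 genes in WT (7 with all peaks) and 3 in Uhrf1hepKO (5 with all peaks). With a TSS window of 500 bp, 12 genes of the wider list had ATACseq in Uhrf1hepKO. By construction these settings use fewer peaks. Depth limits what an absent peak means, since sites with few reads are not listed, and the spread between mice is unknown.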
